A study of Mus musculus with 6 samples.

Results

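The transcription factor genes examined here set the course of epidermal differentiation: Trp63, Klf5, Ovol1, Cebpa, Cebpb, Klf4, Grhl1, Grhl3, Zfp750 and Prdm1. They were taken by gene name from the deposited table, and all 10 were found once each among its 33308 genes. RNA-seq had been made from 6 skin samples of Mus musculus. In 3 of them the mice had been given the lung cancer drug osimertinib, which blocks the EGF receptor (EGFR), for 42 days, and the other 3 came from untreated controls. The sources used here give no strain, sex, age, dose, route or skin site, and do not state whether each sample was 1 animal, so the error terms describe the spread between these samples. The series was set up to study skin problems caused by osimertinib.

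The epidermis renews itself from a basal layer of dividing keratinocytes, whose daughters stop dividing, build keratin filaments in the spinous layer, make barrier proteins in the granular layer and die as cornified cells. Each step has its transcription factors. The protein p63, from Trp63, keeps keratinocytes in their lineage, Ovol1 restrains division as cells leave the basal layer, C/EBP factors act in the spinous layer, and Klf4, the grainyhead-like genes, Zfp750 and Prdm1 act in the late steps and the barrier. EGFR signalling in keratinocytes favours division over differentiation, and most of these factors are also made in the hair follicle.

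No factor differed past the adjusted threshold in edgeR, and the factors did not share a direction. Cebpb was higher in each treated library than in each control, by 1.67-fold. Klf4 had the widest difference, 2.58-fold lower in treated skin on average, but a control library lay within the treated range. In ratios within a library, a comparison chosen after seeing the data, Klf4, Klf5 and Trp63 stood lower in treated skin relative to Grhl1, Ovol1, Zfp750 and Prdm1 without overlap between groups. Separate groups were found in 37.8% of the ratios among the 10 factors, against 22% of all pairs of tested genes. Much of the spread within groups was common to the factors and cancels in their ratios, so the 22% is not a like reference.

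Upstream sequence was examined for motifs of the families studied, because binding to one another's promoters is a known property of such factors. RefSeq promoter entries on GRCm38.p6 were matched for 6 factors, Cebpa, Cebpb, Grhl1, Grhl3, Klf4 and Prdm1, with 7 entries in all; Trp63, Klf5, Ovol1 and Zfp750 were not matched. In the 250 bases before each start, both strands were searched. The KLF motif GGGNGTGG was found in 3 of the 7, against 15.9% of 32851 entries. The motif is rich in G, and the 7 windows had a median of 66.4% G or C, against 52.4% over all entries. The part of base composition in this count was not tested. The matches are shown with 8 bases on either side, in capitals, read in the direction of the gene, where the motif appears as its reverse complement.
Cebpb, chr2:167688812-167688835, plus strand: gccgcgccCCACTCCCcgccgcgc
Grhl3, chr4:135573735-135573758, minus strand: cctcgtctCCACCCCCtcaccccc
Prdm1, chr10:44458811-44458834, minus strand: aggtgcggCCACGCCCccatcgcg

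The matches began 95, 118 and 78 bases before the start of Cebpb, Grhl3 and Prdm1. No match to the grainyhead motif AACNGGTT, the C/EBP motif TTGCNNAA, the OVOL motif CCGTTA, a pair of p63 half-sites or the PRDM1 motif was found in these windows. The share of all entries with such letters was 1.79%, 9.56%, 2.18%, 0.49% and 0.843%, in that order. The whole window of Cebpb, the only factor whose groups did not overlap, follows with its KLF match in capitals. It lies on chr2:167688665-167688914, plus strand, within the span of Tmem189, a gene of the opposite strand, and 81.6% of its bases are G or C, against a median of 52.4% over all entries.
Cebpb upstream: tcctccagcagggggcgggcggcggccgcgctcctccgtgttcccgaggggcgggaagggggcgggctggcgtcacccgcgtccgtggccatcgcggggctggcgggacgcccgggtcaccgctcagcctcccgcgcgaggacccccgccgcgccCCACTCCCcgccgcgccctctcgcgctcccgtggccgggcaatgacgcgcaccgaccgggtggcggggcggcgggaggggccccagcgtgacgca

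Library totals ran from 59877553 to 60719064 counts in treated skin and from 54112624 to 57174797 in controls. All 10 factors passed the filter of a mean FPKM (fragments per gene length and library size) of at least 1 over the 6 libraries, as did 13498 genes in all. Levels below are CPM, counts per library size after TMM scaling, unless FPKM is named. Basal layer genes took 1.22% to 1.97% of the count in treated libraries and 0.959% to 4.04% in controls, so keratinocytes were present in every library. The amount of epithelium and of other tissue varied between pieces, as described with the library patterns. In bulk tissue, fewer cells of a type and less RNA per cell cannot be told apart.

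Compared per length, the order of the factors was led by different genes in the groups. Among treated libraries, Cebpb was highest with 76.8 ± 8.52 FPKM, followed by Klf4 with 60.9 ± 29.9 and Cebpa with 42.3 ± 1.94 FPKM (SD, n = 3). Among controls, Klf4 was highest with 160 ± 102 FPKM, followed by Cebpa with 51.0 ± 16.1 and Cebpb with 43.7 ± 12.1 FPKM. Cebpb was above Klf4 in osimertinib 2 and 3, at 73.4 against 46.5 FPKM and 86.5 against 40.8 FPKM, and below it in osimertinib 1 and every control. Zfp750, Ovol1, Trp63 and Grhl1 followed in treated skin, at 27.1 ± 12.7, 26.9 ± 8.18, 25.1 ± 3.14 and 23.5 ± 10.4 FPKM, with overlapping ranges. Within each treated library Zfp750 was above Grhl1, at 22.4 against 20.9, 41.5 against 34.9 and 17.5 against 14.6 FPKM. In controls Trp63 averaged 33.5 ± 17.7 FPKM, Klf5 25.0 ± 14.4, Zfp750 23.3 ± 14.4, Ovol1 23.3 ± 14.4 and Grhl1 17.5 ± 8.08 FPKM, again with overlapping ranges. Within each control, however, Trp63 and Klf5 were both above Grhl1. Trp63 was at 40.2, 13.4 and 46.9 FPKM in controls 1, 2 and 3, against 20.1, 8.44 and 23.9 FPKM for Grhl1. Klf5 stood at 16.3 ± 3.52 FPKM in treated skin. Grhl3, at 8.95 ± 4.03 FPKM in treated skin and 8.37 ± 4.34 FPKM in controls, and Prdm1, at 3.21 ± 0.82 FPKM in treated skin and 2.78 ± 1.23 FPKM in controls, were the lowest in both groups.

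**Figure D1:**
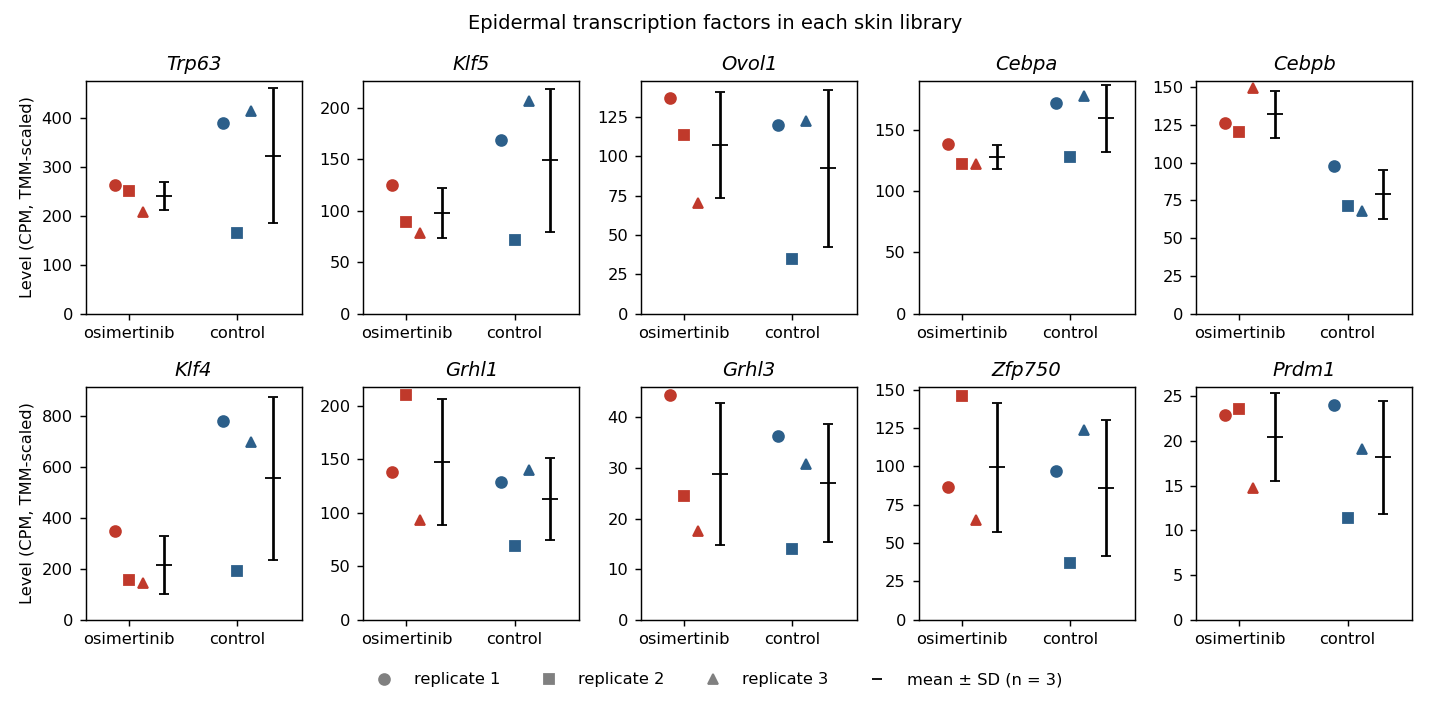
Level of each factor in CPM (y axis from 0) in the 3 osimertinib and 3 control libraries, with the mean and SD beside the points; symbols mark the replicate number. Only Cebpb has groups that do not overlap, and control 2 is the lowest control for every factor except Cebpb.

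The factors of the basal layer came first. Trp63, the keratinocyte lineage factor (chr16:25683763-25892102, plus strand), was at 263, 251 and 208 CPM in osimertinib 1, 2 and 3, against 390, 165 and 415 CPM in controls 1, 2 and 3. The treated values lay inside the control range, and the log2 fold change was −0.43 ± 0.38 (SE, n = 3 per group; edgeR adjusted p = 0.678). Its 8 annotated transcripts were counted together, so isoforms with and without the transactivating domain cannot be told apart. Klf5, a zinc finger factor of proliferating basal keratinocytes (chr14:99298691-99315036, plus strand), was at 125, 88.6 and 78.8 CPM in treated libraries, against 168, 71.5 and 207 CPM in controls. It had the same order among controls as Trp63, with control 2 lowest, and a log2 fold change of −0.61 ± 0.42 (edgeR adjusted p = 0.563). Both values depended on single controls: without control 2 they were −0.72 ± 0.18 for Trp63 and −0.93 ± 0.24 for Klf5 (edgeR adjusted p = 0.142 and 0.149), and without control 3 they were −0.19 and −0.28.

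Ovol1 encodes a zinc finger repressor that limits division as keratinocytes become committed (chr19:5549136-5560646, minus strand). It was at 138, 114 and 70.6 CPM in treated skin, against 120, 34.8 and 123 CPM in controls. The groups overlapped, and the 95% interval of its log2 fold change, −1.02 to 1.45, leaves room for a change of either sign (0.21 ± 0.51, edgeR adjusted p = 0.925). Its paralog Ovol2, taken from the list of other epidermal factors, was at 5.93 ± 0.917 CPM in treated skin and 15.9 ± 8.51 CPM in controls, with no overlap (log2 fold change −1.43 ± 0.45, edgeR adjusted p = 0.286, DESeq2 adjusted p = 0.0369). It was named after its values had been seen.

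The C/EBP genes encode leucine zipper factors that are active in suprabasal keratinocytes, and also in fat and myeloid cells. Cebpb (chr2:167688915-167690418, plus strand) was at 127, 120 and 150 CPM in osimertinib 1, 2 and 3, against 97.9, 71.2 and 68.0 CPM in controls 1, 2 and 3. Every treated library was above every control, with the highest value in osimertinib 3. The log2 fold change was 0.74 ± 0.21 (95% interval 0.24 to 1.25; edgeR adjusted p = 0.260, DESeq2 adjusted p = 0.0230). Of all 13498 tested genes, 11.3% were higher with separate groups and 9.38% lower, against 1 and 0 of the 10 factors. At an unadjusted edgeR p under 0.05, 7.22% of all genes passed as higher and 6.73% as lower, against 1 and 0 of the 10 factors. No gene passed after adjustment in edgeR, 0% in either direction, while DESeq2 called 3.41% higher and 2.95% lower.

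The strand setting of the authors' counting is not known here, and 312 of the 1504 exonic bases of Cebpb, 20.7%, also lie in exons of Tmem189 on the opposite strand. Tmem189 had 1819 to 3893 counts per library and a log2 fold change of 0.12 ± 0.20 (edgeR adjusted p = 0.874). Neutrophil markers were higher in treated skin, as Cebpb was: the list of 12, of which 11 were matched and 4 tested, summed to 0.00818% to 0.061% of the count in treated libraries and 0.00131% to 0.00437% in controls. Their sum had the order of Cebpb among treated libraries, at 0.0224%, 0.00818% and 0.061% in osimertinib 1, 2 and 3. Among controls the orders were opposite, with sums of 0.00131%, 0.00252% and 0.00437% in controls 1, 2 and 3. There Cebpb was highest in control 1 and lowest in control 3. In the controls Ly6g and Stfa2l1 of the list had 0 counts. The matched macrophage markers, 12 of 12, summed to 0.0414%, 0.0241% and 0.0869% in osimertinib 1, 2 and 3. In controls 1, 2 and 3 they summed to 0.0385%, 0.0293% and 0.0407%. Their order was that of Cebpb among treated libraries but not among controls. Of these markers, 0 were at 0 in either group. The part of these cells in the Cebpb result was not tested.

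Cebpa (chr7:35119293-35121928, plus strand) was at 139, 122 and 122 CPM in treated libraries, against 172, 128 and 178 CPM in controls. Osimertinib 1 lay above control 2, so the groups overlapped, and the log2 fold change was −0.32 ± 0.19 (edgeR adjusted p = 0.520). Adipocytes also make Cebpa. All 12 of 12 listed adipocyte markers were detected in both groups. They summed to 0.236% to 0.404% in treated libraries and 0.0745% to 0.717% in controls. Control 3, the highest in Cebpa, was lowest in that sum. Like Cebpa, all 12 had a negative log2 fold change (median −0.77), against 54.7% of all tested genes. In none of the 12 were the groups separate. The part of adipocytes in the Cebpa result was not tested. Cebpa had the narrowest spread of the 10 factors, 1.39-fold between the highest and lowest control, while Klf4 had the widest, 4.11-fold. The level of Cebpa over that of Cebpb was 1.095, 1.02 and 0.815 in osimertinib 1, 2 and 3, against 1.75, 1.80 and 2.61 in controls 1, 2 and 3.

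Klf4 encodes a zinc finger factor that is required for barrier formation in mouse skin (chr4:55527143-55532466, minus strand). It was at 347, 155 and 143 CPM in osimertinib 1, 2 and 3, against 781, 190 and 697 CPM in controls 1, 2 and 3. Controls 1 and 3 were above every treated library, and control 2 lay below osimertinib 1. The log2 fold change was −1.37 ± 0.62 (95% interval −2.88 to 0.14; edgeR adjusted p = 0.394, DESeq2 adjusted p = 0.165), or −1.77 ± 0.43 without control 2 (edgeR adjusted p = 0.141). No alternative gave Klf4 an adjusted p under the threshold.

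The grainyhead-like genes encode factors of barrier repair and cell adhesion. Grhl1 (chr12:24572283-24617391, plus strand) was at 138, 210 and 93.4 CPM in treated skin, against 129, 68.8 and 140 CPM in controls, with a log2 fold change of 0.39 ± 0.39 (edgeR adjusted p = 0.735), which was 0.039 without osimertinib 2, 0.15 without control 2 and 0.67 without osimertinib 3. Grhl3 (chr4:135541888-135573630, minus strand) was at 44.4, 24.6 and 17.5 CPM in treated skin, against 36.4, 13.9 and 30.8 CPM in controls. Both overlapped between groups and peaked in different treated libraries, Grhl1 in osimertinib 2 and Grhl3 in osimertinib 1. The Grhl3 difference was 0.09 ± 0.47 on the log2 scale, with a 95% interval of −1.05 to 1.24 (edgeR adjusted p = 0.974).

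Zfp750, a zinc finger factor of terminal differentiation (chr11:121510978-121519333, minus strand), was at 86.6, 146 and 65.2 CPM in treated skin, against 97.0, 37.1 and 124 CPM in controls. It lies inside Tbcd, a gene of the opposite strand, with which it shares 0 exonic bases in the annotation. Prdm1, which encodes the repressor Blimp1 of late granular cells and of the sebaceous gland (chr10:44437177-44528501, minus strand), was at 22.9, 23.6 and 14.8 CPM in treated skin, against 24.0, 11.4 and 19.1 CPM in controls. Neither was separated, with log2 fold changes of 0.21 ± 0.50 for Zfp750 and 0.17 ± 0.33 for Prdm1 (edgeR adjusted p = 0.925 and 0.899). Of the 10 factors 6 had a positive and 4 a negative log2 fold change, with a median of 0.13, against a median of −0.05 and 45.3% positive over all tested genes.

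**Figure D2:**
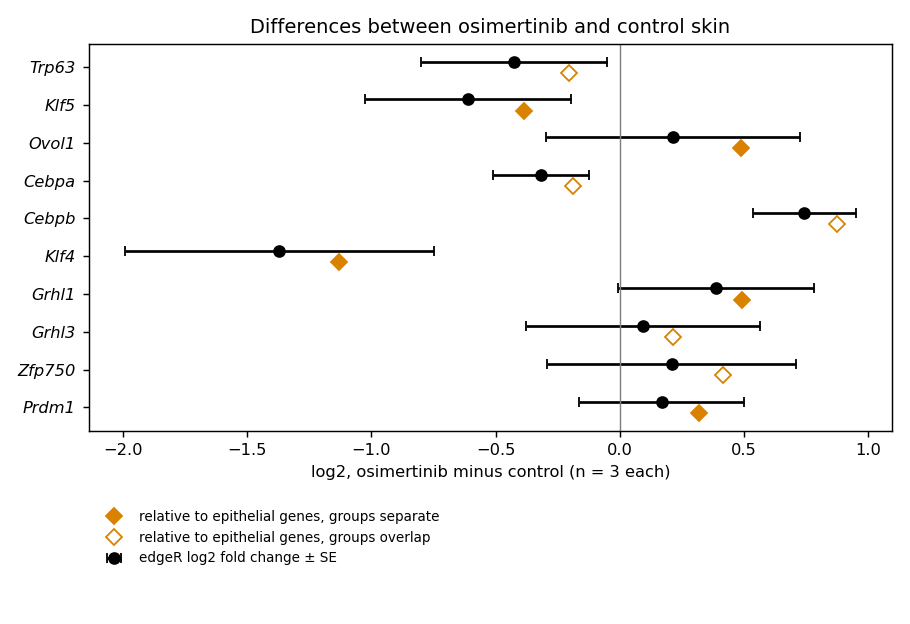
Differences between osimertinib and control skin on the log2 scale (x axis) for each factor (y axis). Black points are edgeR log2 fold changes with their SE, and diamonds are differences in level relative to the epithelial list, filled where the 3 treated and 3 control libraries do not overlap. Klf4 lies furthest to the left, at −1.37 and −1.13, and Cebpb furthest to the right, at 0.74 and 0.87.

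Much of the spread within groups was common to the factors. Control 2 was the lowest control for 9 of the 10 factors and the lowest of all 6 libraries for 7, and osimertinib 3 was the lowest treated library for 9 of the 10. Cebpb was the exception among controls, with control 3 lowest, and among treated libraries, with osimertinib 2 lowest. A list of 21 pan-epithelial genes, such as the cadherin Cdh1 and desmoplakin (Dsp), was likewise lowest in control 2 and, among treated libraries, in osimertinib 3. It took 0.729%, 0.705% and 0.410% of the count in osimertinib 1, 2 and 3, against 0.969%, 0.316% and 1.20% in controls 1, 2 and 3. Skeletal muscle markers, 14 of 14 matched and all detected in both groups, took 4.06% to 6.82% in treated libraries and 0.0289% to 12.6% in controls, with the highest value in control 2 and the lowest in control 3. When edgeR was given a covariate for that muscle list, no factor passed the threshold, and the log2 fold changes of Klf4, Cebpb and Cebpa were −1.07, 0.68 and −0.23. Those of the other 7 moved by more than 1.5 times, to −0.15 for Trp63, −0.26 for Klf5, 0.62 for Grhl1, 0.26 for Grhl3, 0.57 for Ovol1, 0.63 for Zfp750 and 0.27 for Prdm1. With the same covariate and control 3 left out, these 7 were at −0.31, −0.36, 0.37, 0.16, 0.41, 0.34 and 0.081, in that order.

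**Figure D3:**
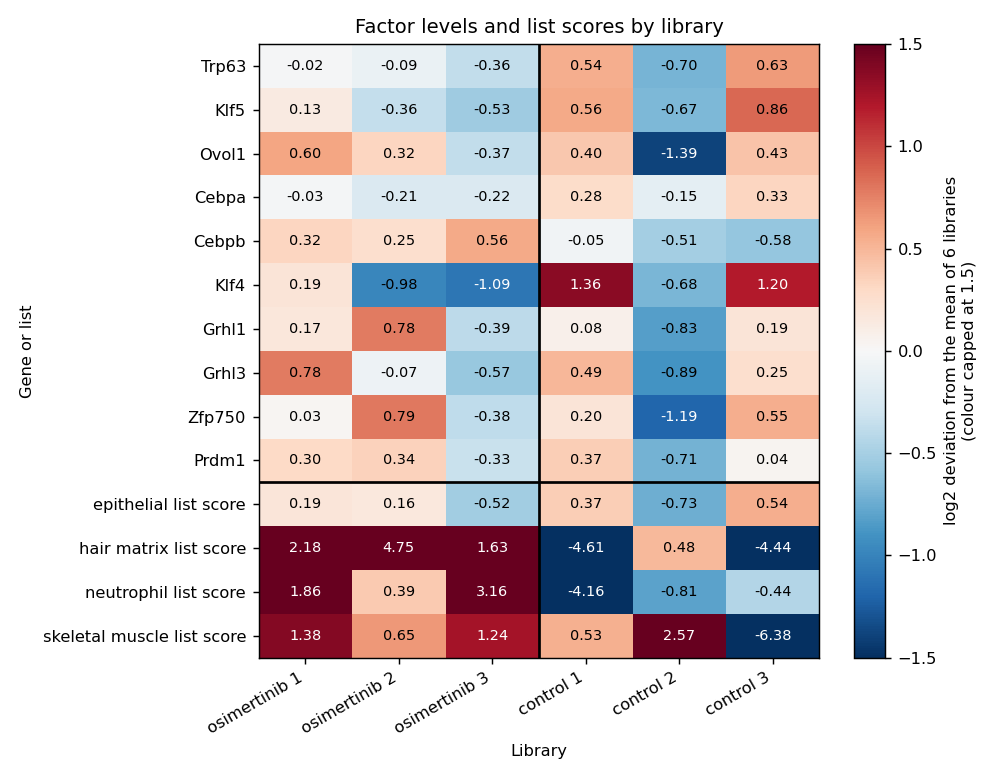
Each factor's log2 CPM in each library (columns) minus its mean over the 6 libraries, and, under the line, the scores of 4 marker lists (mean over genes of the same deviation). The row of the epithelial list is at −0.52 in osimertinib 3 and −0.73 in control 2, the libraries in which most factors are blue, while the Cebpb row runs differently.

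The factors were therefore also set against the mean log2 CPM of the 20 tested epithelial genes in the same library. The SD among controls became smaller for 8 of the 10 factors, with a median of 0.26 instead of 0.74. The SD among treated libraries became smaller for 7, with a median of 0.34 instead of 0.44. On this scale Klf4 stood at 1.07, −0.07 and 0.51 in osimertinib 1, 2 and 3, against 2.06, 1.12 and 1.72 in controls 1, 2 and 3, so that each treated library was below each control. The mean difference was −1.13 (exact two-sided permutation p = 0.1, the smallest that 3 against 3 libraries allow). In osimertinib 1 and control 2 the values differed by little.

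Klf5 was also lower without overlap on this scale, at −0.54 ± 0.29 in treated skin and −0.16 ± 0.13 in controls (difference −0.39). Grhl1 was higher without overlap, at 0.00 ± 0.33 in treated skin and −0.49 ± 0.13 in controls (0.49). Ovol1 was higher without overlap as well, at −0.43 ± 0.14 in treated skin and −0.92 ± 0.36 in controls (0.49), and so was Prdm1, at −2.80 ± 0.04 in treated skin and −3.12 ± 0.30 in controls (0.32; SD, n = 3 each). All 5 had an exact permutation p of 0.1, so none could pass the threshold. The 3 factors higher and 2 lower without overlap, of 10, stand against 4.73% and 4.81% of all tested genes on the same scale. Without the scale these shares of all tested genes were larger, at 11.3% and 9.38%, whereas the scale narrowed the spread of most factors. All tested genes are therefore not a like reference here, and the part of the scale in this contrast was not tested. Trp63 (−0.20), Cebpa (−0.19), Grhl3 (0.21), Zfp750 (0.41) and Cebpb (0.87) overlapped. The Cebpb overlap was with control 2, which stood at −0.29 against −0.38, −0.43 and 0.57 in osimertinib 1, 2 and 3. These counts depended on the genes used as the scale. With only Cdh1, Epcam, Dsp and Jup, 3 factors were higher (Grhl1, Ovol1 and Prdm1) and 0 lower, against 6.56% and 3.53% of all tested genes. With the 17 tested basal layer genes, 5 were higher (Grhl1, Ovol1, Zfp750, Prdm1 and Cebpb) and 0 lower, against 14.3% and 2.09%. Klf4 overlapped under both, at −0.94 with the 4 genes and −0.69 with the basal layer genes (exact permutation p = 0.2 each), and Klf5 was at −0.20 and 0.056 (p = 0.2 and 0.7). Single libraries also moved the sizes: Prdm1 was 0.15 without control 3, Ovol1 0.28 without control 2, Grhl1 0.31 without osimertinib 2 and Klf5 −0.22 without osimertinib 2. The signs of Klf4, Grhl1, Ovol1 and Prdm1 were the same under each of the 9 alternatives on this scale.

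Ratios of 2 factors within a library need no scale. Of the 45 pairs, 17 (37.8%) had ratios that did not overlap between groups, against 22% of all pairs of tested genes. Pairs that share a gene are not independent. Spread common to 2 genes cancels in their ratio, and much of the spread was common to the factors. All pairs of tested genes are therefore not a like reference, and the part of this in the 37.8% was not tested. Klf4, Klf5 and Trp63 were on the low side of 16 of the 17, and Cebpa over Cebpb was the other. Klf4 over Ovol1 was 2.52, 1.36 and 2.03 in osimertinib 1, 2 and 3, against 6.49, 5.45 and 5.68 in controls 1, 2 and 3. The control values lay close together, although Klf4 itself ranged 4.11-fold among controls. Klf4 over Grhl3 was 7.81, 6.29 and 8.22 in treated libraries, against 21.5, 13.7 and 22.7 in controls. The mean log2 ratio differed by −1.62 for Klf4 over Ovol1 and by −1.35 for Klf4 over Grhl3 (exact permutation p = 0.1 each, the smallest possible). Klf4 over Cebpb was 2.74, 1.29 and 0.958 in treated libraries, against 7.97, 2.67 and 10.3 in controls. It had the widest mean difference of the 45 pairs, but osimertinib 1 and control 2 overlapped.

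Klf5 was lower relative to Ovol1, Grhl1, Grhl3, Zfp750, Prdm1 and Cebpb, by −0.60 to −1.26 on the log2 scale. For example, Klf5 over Ovol1 was 0.908, 0.778 and 1.12 in treated libraries, against 1.400, 2.05 and 1.68 in controls. Trp63 was lower relative to Ovol1, Grhl1, Zfp750, Prdm1 and Cebpb, by −0.52 to −1.08. Trp63 over Zfp750 was 3.04, 1.72 and 3.19 in treated libraries, against 4.03, 4.44 and 3.36 in controls, so that osimertinib 3 and control 3 were close. Among Ovol1, Grhl1, Grhl3, Zfp750 and Prdm1 themselves, 0 of the 10 ratios separated the groups, and the mean differences, taking the gene named earlier over the later one, lay between −0.20 and 0.28. Without control 2, 27 of the 45 pairs separated the groups, but fewer samples make separation easier. The share of all pairs of tested genes in that setting is not given here, so the 27 cannot be set against it.

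**Figure D4:**
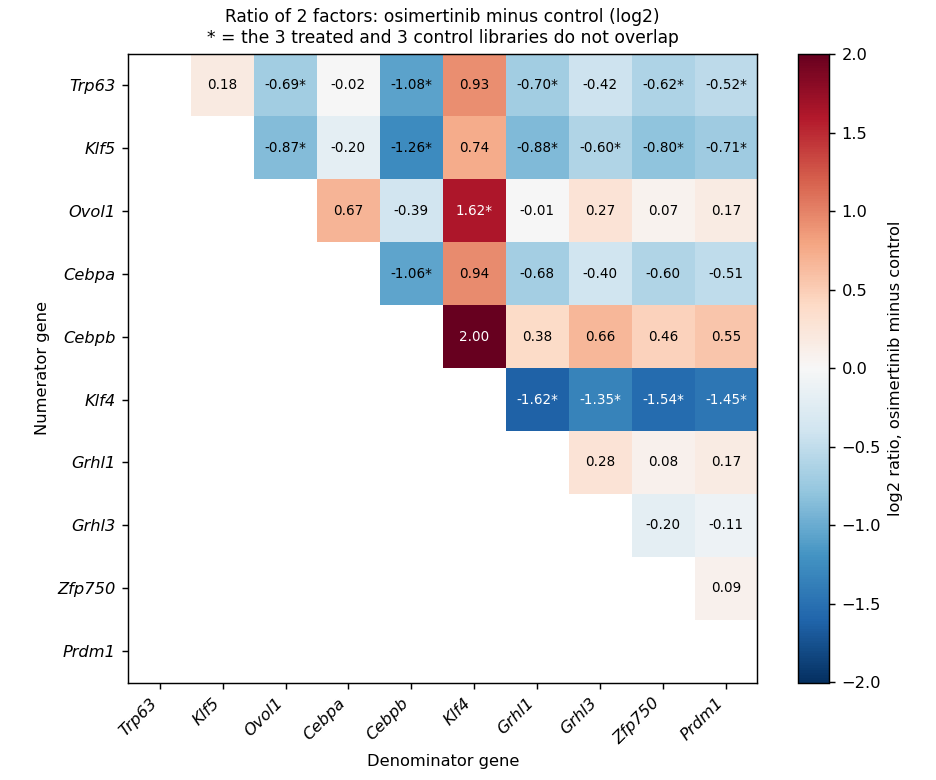
Difference in mean log2 ratio between osimertinib and control libraries for each pair of factors (row gene over column gene), with an asterisk where the groups do not overlap. Asterisks fill most of the Klf5 and Trp63 rows and the Klf4 row, with values down to −1.62, and are absent between Grhl1, Grhl3, Zfp750 and Prdm1.

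Hair matrix markers were higher in treated skin, where these ratios were lower, but among controls they did not follow all of the ratios. The list, 13 of 14 genes matched and none at 0 in either group, took 0.0946% to 0.676% of the count in treated libraries and 0.0026% to 0.026% in controls. Osimertinib 2, which had the highest share, also had the highest Grhl1 and Zfp750 and the lowest Klf4 relative to either. Control 2, with the highest share among controls, had the lowest control value of Klf4 over Grhl1, 2.76, and over Zfp750, 5.11. It had the highest control value of Klf5 over Ovol1, 2.05, and of Trp63 over Ovol1, 4.74, whereas these ratios were lower in treated skin. The part of hair follicle cells in the ratios was not tested.

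Other transcription factors of the epidermis, 44 listed and 43 tested, spanned a wide range. Of these, 15 had a positive and 28 a negative log2 fold change (median −0.25). Without overlap, 8 were higher and 6 lower, against 11.3% and 9.38% of all tested genes. EdgeR called 0, with 12 at an unadjusted p under 0.05, against 14.0% of all tested genes in both directions. DESeq2 called 6 higher and 3 lower, against 3.41% and 2.95%. The smallest p values belonged to Etv4, an ETS factor downstream of growth factor signalling, at 65.9 CPM in treated skin and 12.7 CPM in controls on average (log2 fold change 2.38 ± 0.33, edgeR adjusted p = 0.130). Dlx3, a homeobox factor of the hair matrix and the granular layer, was at 163 CPM in treated skin and 12.9 CPM in controls (3.66 ± 0.61, adjusted p = 0.162). Runx1, a factor of the hair follicle, was at 40.2 CPM in treated skin and 14.8 CPM in controls (1.44 ± 0.26, adjusted p = 0.179). The list holds 5 close relatives of the 10, all with a negative log2 fold change. Ovol2, given above, was lower without overlap. Klf3, at 81.5 ± 34.8 CPM in treated skin and 164 ± 83.4 CPM in controls (SD, n = 3 each), had overlapping groups. Log2 fold changes of Klf9 at −0.69 ± 0.29, Grhl2 at −0.36 ± 0.39 and Cebpd at −0.22 ± 0.41 also came with overlapping groups; these were named after their values had been seen.

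Among genes that mark each layer, negative log2 fold changes were in the majority, as they were among all tested genes, at 54.7%. Of 17 tested basal layer genes, which include many p63 targets, 15 had a negative log2 fold change (median −0.55). Of 16 spinous layer genes 13 did (median −1.29), and of 28 granular and cornified genes 22 did (median −0.80). Averaged over each list, the levels overlapped between groups. Osimertinib 3 stood apart in the spinous score and in the granular and cornified score, but not in the basal score. The granular and cornified score, the mean log2 deviation from each gene's average over the 6 libraries, was 0.76, −0.17 and −1.90 in osimertinib 1, 2 and 3, against 0.69, −0.087 and 0.72 in controls 1, 2 and 3, so that osimertinib 1 was above every control. The spinous score was 0.36, −0.37 and −1.48 in treated libraries, against 0.87, −0.31 and 0.93 in controls, and the basal score 0.12, −0.44 and −0.51, against 0.37, −0.42 and 0.89. EdgeR called 0 genes in the 3 lists. At an unadjusted edgeR p under 0.05, 4, 3 and 1 were lower and 2, 1 and 1 higher, against 6.73% and 7.22% of all tested genes. DESeq2 called 1, 0 and 1 lower and none higher, against 2.95% and 3.41%. Dst, which anchors keratin to hemidesmosomes, differed by −1.87 ± 0.40 (edgeR adjusted p = 0.202), and sciellin (Scel), a cornified envelope precursor, by −1.55 ± 0.44 (adjusted p = 0.260). The metallothionein Mt4, of the spinous list, averaged 150 CPM in treated skin and 52.9 CPM in controls, with overlapping groups (edgeR adjusted p = 0.299). It was at 144, 242 and 63.6 CPM in osimertinib 1, 2 and 3, against 42.5, 46.2 and 70.0 CPM in controls 1, 2 and 3.

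Of 17 tested genes linked to grainyhead-like factors in epithelia, 11 had a negative and 6 a positive log2 fold change (median −0.22). EdgeR called 0 of them, and DESeq2 called 2 lower, against 2.95% of all tested genes. The transglutaminase Tgm5 was at 8.61 CPM in treated skin and 35.7 CPM in controls (−2.05 ± 0.36, edgeR adjusted p = 0.179), and claudin 3 (Cldn3) at 2.24 CPM in treated skin and 10.5 CPM in controls (−2.24 ± 0.63, adjusted p = 0.260). Spint1, a protease inhibitor of epithelia, was at 107 CPM in treated skin and 47.0 CPM in controls (1.19 ± 0.41, adjusted p = 0.308). The list shares 7 genes with the epithelial list, 3 with the cornified and 2 with the spinous list.

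**Figure D5:**
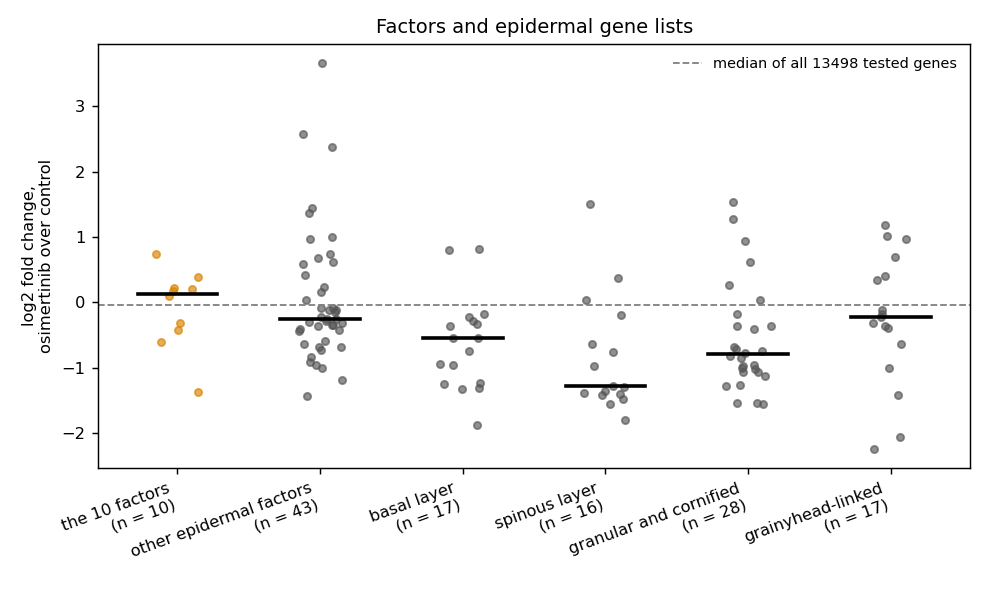
Log2 fold change, osimertinib over control (y axis), of the 10 factors and of the tested genes of 5 epidermal lists, 1 point per gene with the list median as a bar. The medians are 0.13 for the 10 factors and −0.25, −0.55, −1.29, −0.80 and −0.22 for the other lists from left to right, against −0.05 for all tested genes (dashed line).

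Genes whose pattern over the 6 libraries was most like that of a factor were ranked by Pearson's r of log2 CPM among 12083 genes, as a description. Nearest to Trp63 were Cd9, Tpbg and Cd2ap (r = 0.995, 0.995 and 0.994). Nearest to Klf4 were Kctd20, Fam221a and Pik3cb (r = 0.998, 0.996 and 0.994), and nearest to Cebpb were Msl1, Mfap2 and Ccl19-ps1 (r = 0.996, 0.993 and 0.986). Nearest to Grhl3 were Epn3, Ttc22 and Plekha6 (r = 0.982, 0.981 and 0.977). An r above 0.95 was reached by 179 genes for Trp63, 290 for Klf4, 23 for Cebpb and 11 for Grhl3. With 6 libraries that differ in tissue content, such values are common among many genes.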

How the data were processed

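RNA-seq of mouse skin was analysed in 3 osimertinib and 3 control samples, grouped by their titles. Per the submitters' processing notes, cutadapt 1.9 and the build GRCm38 were used; no aligner, counting tool, annotation or strand setting, and no use of molecular identifiers, is given in the sources used here. Per the labels' protocols, libraries were poly(A)-selected and dUTP-marked. The authors deposited raw counts for each gene and, beside them, their FPKM values, per the file headers. A further 6 columns of values match no sample and were not used. Gene positions in the table equalled those of GENCODE M21 for all 10 factors.

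Genes whose FPKM averaged 1 or more were tested with the quasi-likelihood test of edgeR 4.0.16 (R 4.3.3) on the deposited counts, with TMM scaling, no covariate, two-sided p and Benjamini-Hochberg adjustment over all tested genes (threshold 0.05). SE is the size of the log2 fold change over the root of F. Levels relative to epithelial genes and ratios used log2 CPM with a prior count of 2 and an exact permutation test (SciPy 1.17.1); the ratios were chosen after seeing the data. Alternatives used DESeq2 1.42.0, limma 3.58.1 on log2(FPKM + pseudocount), other filters and scaling, covariates and left-out samples. The fits were tested on simulated data made from this comparison with 13498 genes: edgeR recovered 2.99%, 50.7% and 86.4% of 2-, 4- and 8-fold changes with 7 false calls, and DESeq2 20.9%, 89.6% and 98.5% with 84 false calls. A count of 0 would allow a level of up to 0.0494 to 0.0554 CPM (3 counts, counting error only).

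The 10 factors and all gene lists were chosen with earlier results of these data known. Genes named from a list are those with the smallest edgeR p, at most 3 each, unless the text says otherwise; those nearest in pattern are the 3 with the highest r, leaving out names made of Gm and a number or ending in Rik.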

Additional observations from a re-analysis of the deposited data

How the results depend on the processing

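None of the 10 factors was called by edgeR under any of the alternatives run, and DESeq2 called 1, Cebpb, as higher. Over all genes the main test called 0 genes; DESeq2 called 460 higher and 398 lower, limma on log2(FPKM + 1) called 12 higher and 5 lower, limma on log2(FPKM + 0.1) called 1 higher and 1 lower, and edgeR with a mean FPKM of at least 5 called 2 lower. With a covariate for skeletal muscle, or with scaling to the epithelial list, 1 was lower. Prdm1 did not reach the stricter filter.

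Klf4 was lower in all 16 alternatives (−1.90 to −1.04) and Cebpb higher in all 16 (0.60 to 0.93). Signs turned for the factors near 0 when a library was left out: Grhl3 ran from −0.36 (without osimertinib 1) to 0.38, Ovol1 from −0.16 (without control 2) to 0.49, Zfp750 from −0.18 (without osimertinib 2) to 0.59 and Prdm1 from −0.054 (without control 2) to 0.42. Ovol1 was −0.0046 without osimertinib 1, and without control 2 Grhl3 was −0.20 and Zfp750 −0.13. Relative to epithelial genes, Cebpa became 0.0021 with 4 reference genes and 0.25 with basal layer genes, where Trp63 became 0.24 and Klf5 0.056. When a library was left out, Grhl3 ran from −0.030 to 0.39 and Cebpa from −0.39 to 0.059 on that scale. Pairs of factors with separate ratios numbered 17 to 27 with a library left out, a setting in which fewer samples make separation easier. The cause of the other shifts was not tested.

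Whether the replicate numbers of the titles pair the samples could not be told from these data. Same-numbered deviations correlated at 0.22, 0.03 and −0.11, and differently numbered ones at −0.28 to 0.11. The replicate block gave 0 calls, Klf4 at −1.25 and Cebpb at 0.76. In the simulated data edgeR recovered few changes of 2-fold size and DESeq2 made more false calls than edgeR, 84 against 7. Depth was not limiting, since the lowest count of any factor in a library was 516; the number of samples limits the precision.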
